A study of Homo sapiens with 96 samples.

Results

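The MYC, MAX and MXD network is a set of transcription factors that share a basic helix-loop-helix leucine zipper and meet on the same short DNA motif, the E-box. Its 10 members here were MYC, MYCN, MYCL, MAX, MXD1, MXD3, MXD4, MXI1, MNT and MLX, taken by gene symbol from the 60552 gene rows of the deposited count matrix. All 10 had a row, and the annotation of GENCODE 29 (build GRCh38) places them as protein-coding genes, MYC at chr8:127735434-127741434, MYCN at chr2:15940564-15947007, MYCL at chr1:39895426-39902256, MAX at chr14:65006174-65102695, MXD1 at chr2:69897688-69942945, MXD3 at chr5:177301461-177312757, MXD4 at chr4:2247432-2262294, MXI1 at chr10:110207605-110287365, MNT at chr17:2384060-2401118 and MLX at chr17:42567068-42573239. The matrix holds bulk RNA-seq of 6 established human acute myeloid leukaemia (AML) lines (THP1, OCIAML3, MV411, MOLM13, Kasumi1 and HL60), each cultured for 2 or 4 days under 4 treatments. The arm labelled 552A is read here as 1 µM GSK2879552, an inhibitor of the histone demethylase LSD1 (KDM1A), because it is the one arm of the treatment protocol left without a label and shares its digits. ATRA is 100 nM all-trans retinoic acid, the ligand of the retinoic acid receptors. Combo is both agents at those doses, and DMSO is the 0.1% vehicle. Each line, treatment and day has 2 libraries, which makes 48 groups and 96 libraries. The labels do not say that the 2 libraries came from separate cultures. Outside the tests across lines, p-values thus measure only the spread between libraries, which may be technical. The tests across lines sum the 2 libraries and take the 6 lines as replicates. Their p-values measure how a difference varies between lines. All values are RNA levels in whole cultures of 1 line, in which fewer cells of a type and less RNA per cell cannot be told apart.

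MYC proteins bind the E-box as dimers with MAX and raise the transcription of genes for ribosome assembly, nucleotide synthesis and cell growth. MAX also pairs with the MXD proteins, MXI1 and MNT, which bring corepressors to the same motif, while MLX is a MAX-like partner that joins some MXD proteins and the glucose-sensing factors MLXIP and MLXIPL to E-boxes. In myeloid cells a loss of MYC and a gain of MXD1 are textbook accompaniments of terminal differentiation, and HL60 is known for an amplified MYC gene. Of the other lines, each derived from 1 patient, OCIAML3 has a mutated NPM1, THP1, MV411 and MOLM13 have KMT2A fusions, and Kasumi1 has the fusion of RUNX1 with RUNX1T1.

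The E-box core CACGTG was searched in the RefSeq promoter windows of the members (build GRCh38.p14, 250 bases before to 50 after a start site). A 6-base palindrome reads the same on both strands, so 1 search covers both. Windows were found for 9 members, all but MYC, and the windows of MXD4, MNT and MLX held the core. These 3 are shown because they hold the motif the network itself binds, and capitals mark CACGTG. The MYCL window is added because this gene had the largest rise among the members, and it holds no CACGTG.
MXD4, chr4:2262060-2262359, minus strand: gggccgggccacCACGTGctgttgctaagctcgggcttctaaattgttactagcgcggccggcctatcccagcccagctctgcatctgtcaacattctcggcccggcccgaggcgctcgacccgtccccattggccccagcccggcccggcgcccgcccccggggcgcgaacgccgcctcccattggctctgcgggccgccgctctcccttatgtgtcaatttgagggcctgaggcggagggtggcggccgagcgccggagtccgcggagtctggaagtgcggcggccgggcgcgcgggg
MNT, chr17:2401011-2401310, minus strand: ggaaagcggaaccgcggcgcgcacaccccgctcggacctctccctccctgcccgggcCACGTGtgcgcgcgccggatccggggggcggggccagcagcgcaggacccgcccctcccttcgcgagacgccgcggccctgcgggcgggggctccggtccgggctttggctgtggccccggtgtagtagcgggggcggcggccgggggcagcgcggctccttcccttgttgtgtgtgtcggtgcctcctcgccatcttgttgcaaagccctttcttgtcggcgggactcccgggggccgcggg
MLX, chr17:42566850-42567149, plus strand: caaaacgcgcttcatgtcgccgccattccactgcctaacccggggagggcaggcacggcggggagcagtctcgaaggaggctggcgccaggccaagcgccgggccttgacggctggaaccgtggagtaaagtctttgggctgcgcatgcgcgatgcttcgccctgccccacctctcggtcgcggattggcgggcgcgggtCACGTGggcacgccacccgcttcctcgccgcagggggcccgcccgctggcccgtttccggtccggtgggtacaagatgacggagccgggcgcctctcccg
MYCL, chr1:39901868-39902167, minus strand: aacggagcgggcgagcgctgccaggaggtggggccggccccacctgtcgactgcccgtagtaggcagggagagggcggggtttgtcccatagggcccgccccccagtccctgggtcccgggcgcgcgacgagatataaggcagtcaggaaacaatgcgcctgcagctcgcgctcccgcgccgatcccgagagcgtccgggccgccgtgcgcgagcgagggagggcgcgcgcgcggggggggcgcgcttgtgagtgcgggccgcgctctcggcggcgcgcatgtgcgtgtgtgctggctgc
The first base of the core lies at -238 from the start in MXD4, at -193 in MNT and at -50 in MLX. Over all 35116 windows of this length 7.256% held CACGTG, and 68.68% held the looser CANNTG, which includes it. The windows of MYCN, MYCL, MAX, MXD1, MXD3 and MXI1 held no CACGTG. A match is a description of letters and not of a bound site.

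Libraries held 12.82 M to 40.95 M counts assigned to genes, with a median of 22.88 M. In the DMSO cultures the myeloid genes CD33, SPI1 and PTPRC were counted in every line, and RUNX1T1, part of the fusion gene of Kasumi1, ranged over 110.7 to 135.2 CPM there (CPM are counts scaled to a common library size) against at most 0.35 CPM elsewhere. The other myeloid genes listed varied more between lines. MPO averaged 11110 CPM in Kasumi1 and 1.57 in OCIAML3, CEBPA 321 in THP1 and 8.59 in Kasumi1, and CSF3R 518 in Kasumi1 and 46.05 in HL60. Summed stromal and epithelial markers (COL1A1, EPCAM and KRT18) had medians of 2.91, 4.18 and 3.94 CPM with 552A, ATRA and Combo, and 3.21 CPM with DMSO, and EPCAM was high in Kasumi1. The B-cell gene CD79A was counted in HL60 at 25.3 to 39.2 CPM with 552A, 8.13 to 55.1 with ATRA and 8.78 to 104 with Combo, against 34.8 to 47.1 with DMSO, and its part in the HL60 results was not tested. A list of 5 libraries was set apart for how their counts ran with the GC content of genes: OCIAML3 552A day 2 replicate 2, THP1 552A day 2 replicate 2, MV411 Combo day 4 replicate 2, Kasumi1 Combo day 4 replicate 1 and MOLM13 552A day 4 replicate 1. The list was not a cut on the slope of that trend. MV411 DMSO day 4 replicate 2 (-0.533), OCIAML3 Combo day 4 replicate 2 (-0.498) and HL60 ATRA day 4 replicate 2 (-0.455) had steeper slopes than MOLM13 552A day 4 replicate 1 (-0.451) and were not listed. The first of these is 1 of the 2 DMSO libraries of MV411 at day 4. The mean slope also differed by arm. With DMSO it was 0.175 at day 2 and 0.128 at day 4. On the same days it was -0.115 and 0.0404 with 552A, -0.0469 and -0.023 with ATRA, and -0.0211 and -0.137 with Combo. Treatment and this trend thus run together, and the part of the trend in the differences from DMSO was not tested. Fits with a correction for GC content and length are given as an alternative. Calls that are lost when 1 of the 5 listed libraries is left out are given with that value.

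Before treatment effects, the levels of the members differed between lines, as those of most genes did. Among the 24 DMSO libraries all 10 members differed between lines (edgeR quasi-likelihood F test, adjusted p under 0.05), as did 92.8% of the genes tested. MYC averaged 1558 ± 259 CPM in HL60 (SD, n = 4 for each line), 715 ± 95.9 in MOLM13, 519 ± 83.1 in Kasumi1, 481 ± 85.7 in MV411, 294 ± 43.6 in OCIAML3 and 269 ± 24.9 in THP1. HL60 stood above MOLM13 (edgeR adjusted p = 1.14e-06), MOLM13 above Kasumi1 (0.00718) and MV411 above OCIAML3 (0.000269). Kasumi1 and MV411 (0.507), and OCIAML3 and THP1 (0.703), were not told apart.

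The other MYC-type genes followed another order. MYCL, the family member first found amplified in lung cancer, averaged 45.2 ± 1.47 CPM in THP1, 12.1 ± 3.81 in MOLM13, 6.52 ± 0.851 in OCIAML3, 2.08 ± 0.393 in MV411, 1.02 ± 0.572 in HL60 and 0.306 ± 0.0319 in Kasumi1 (SD, n = 4). Every neighbouring pair in that order was called, where 56.3% of the tests of a gene between 2 lines were called, over all genes and all pairs of lines. MYCN, the member known from neuroblastoma, was counted in Kasumi1 alone at 3.87 ± 0.839 CPM (SD, n = 4), from 343 counts in 4 DMSO libraries. In the other 5 lines 77 of 80 libraries had no MYCN count and 3 had 1 count. Against the limit that a count of 0 allows over the 4 DMSO libraries of a line (3 counts), the Kasumi1 mean was at least 158-fold higher than in OCIAML3, 132-fold than in HL60, 119-fold than in MV411, 104-fold than in THP1 and 90-fold than in MOLM13. These limits cover counting error only.

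MAX and the repressor genes were spread less. MAX ranged from 97.5 ± 10.5 CPM in MV411 to 65.8 ± 6.42 in MOLM13 (SD, n = 4), and no neighbours in the order of the 6 lines were called. MXD1, the repressor known to rise as granulocytes mature, averaged 58.0 ± 16.8 CPM in MOLM13, 46.0 ± 19.6 in MV411, 45.5 ± 1.92 in Kasumi1 and 36.5 ± 6.47 in HL60, and 16.01 ± 5.62 in OCIAML3 and 11.2 ± 1.08 in THP1. The step between HL60 and OCIAML3 was the called one (edgeR adjusted p = 9.52e-07). MXI1 ran between 155 ± 54.5 CPM in MV411 and 28.5 ± 2.06 in THP1, which lay below its neighbour OCIAML3 (79.6 ± 59.8; edgeR adjusted p = 0.00023). MXD3 lay between 26.4 ± 3.48 CPM in OCIAML3 and 11.3 ± 4.01 in MOLM13, and MXD4 between 64.0 ± 10.6 in Kasumi1 and 19.1 ± 7.10 in HL60, with no called neighbours. MNT had 20.8 ± 4.20 CPM in OCIAML3 and was lowest in Kasumi1 (6.22 ± 1.07) and THP1 (4.58 ± 0.666), with a called step between HL60 (12.9 ± 2.47) and Kasumi1 (edgeR adjusted p = 0.000186). MLX fell into a higher and a lower set, with the called step between MV411 at 85.1 ± 5.42 CPM and Kasumi1 at 61.0 ± 2.97 (edgeR adjusted p = 0.00202).

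**Figure D1:**
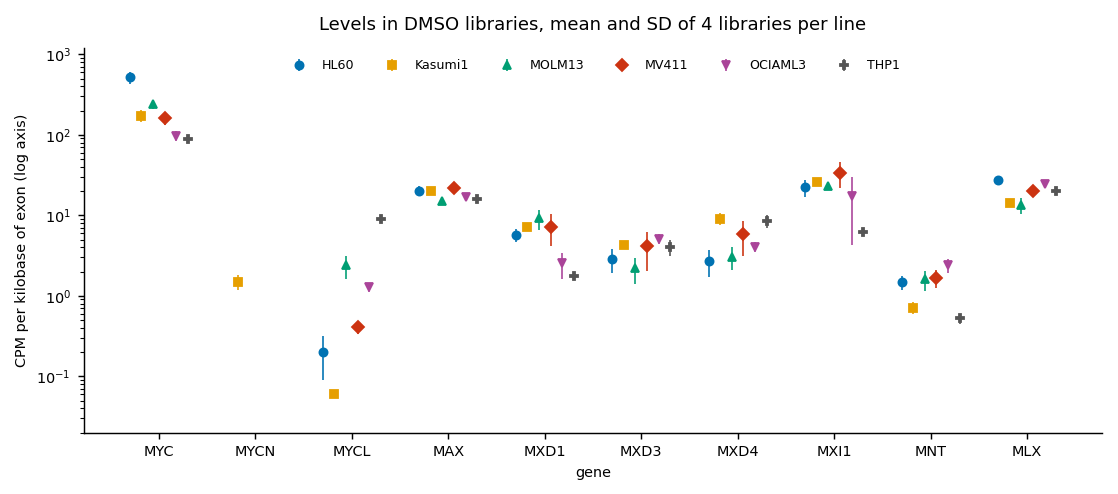
Level of each member with DMSO in the 6 lines, as mean CPM per kilobase of exon on a log axis, over the 4 DMSO libraries of a line; bars are SD, and MYCN is drawn for Kasumi1 alone because the other lines had no count. MYC lies highest in every line, from 519 CPM per kb in HL60 to 89.5 in THP1, and MYCL spreads most among the members counted in all lines.

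Levels of different genes can be set side by side only per length. Per kilobase of exon, MYC was the highest of the 10 members in all 6 lines, at 519 CPM per kb in HL60 and 89.5 in THP1, and it kept that rank when the longest transcript was used as the length. MXI1, MLX and MAX filled ranks 2 to 4 in 5 lines. THP1 was the exception, with MYCL at 8.92 CPM per kb on rank 4 and MXI1 on rank 6 (ranks 5 and 7 by the longest transcript).

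With ATRA and Combo most calls in the network were lower than DMSO, while the few calls with 552A were mostly higher. Each member in each line gave 60 gene-line pairs, of which 54 had enough counts to test; MYCN was tested in Kasumi1 alone and MYCL in all lines but Kasumi1. With 552A, 4 pairs were called against DMSO at day 2 (3 higher, 1 lower) and 4 at day 4 (3 higher, 1 lower), 7.41% of those tested on each day, while 2.8% of all gene-line pairs were called at day 2 (2.26% higher, 0.537% lower) and 3.71% at day 4 (2.7% higher, 1.01% lower). With ATRA, 12 pairs were called at day 2 (1 higher, 11 lower) and 18 at day 4 (3 higher, 15 lower), 22.2% and 33.3%, beside 11.3% of all pairs at day 2 (6.45% higher, 4.85% lower) and 15.7% at day 4 (8.52% higher, 7.22% lower). With Combo, 18 pairs were called at day 2 (5 higher, 13 lower) and 20 at day 4 (4 higher, 16 lower), 33.3% and 37%, beside 18.7% at day 2 (10.6% higher, 8.16% lower) and 22% at day 4 (12% higher, 9.94% lower). Of these, 1 and 1 with 552A, 4 and 9 with ATRA, and 10 and 16 with Combo were called without each library of the line in turn. The arms share their DMSO libraries. In the DMSO cultures alone no pair differed between day 4 and day 2 by edgeR (0.426% of all pairs were called), at an unadjusted p under 0.05 there were 10, and 1 by DESeq2.

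The lines differed in how many of all their genes were called, which is the background to the members' calls in each. Against DMSO at day 4, 552A called 6.89% of genes in THP1, 0.92% in HL60, 4.95% in MV411, 2.67% in OCIAML3, 1.59% in MOLM13 and 5.14% in Kasumi1. ATRA called 14.2% in THP1, 30.8% in HL60, 25.8% in MV411, 14.5% in OCIAML3, 8.41% in MOLM13 and 0.106% in Kasumi1. Combo called 35.6% in THP1, 29.6% in HL60, 26.3% in MV411, 15.1% in OCIAML3, 14% in MOLM13 and 10.3% in Kasumi1. Kasumi1 was thus nearly without calls under ATRA over all genes. Of the 9 members tested there, 1 was called with ATRA at day 4, MYCN, which was lower, and that call was not kept without each library in turn. At day 2 the 552A shares were 6.67% in THP1, 1.3% in HL60, 1.79% in MV411, 2% in OCIAML3, 1.4% in MOLM13 and 3.53% in Kasumi1. The ATRA shares were 14.7% in THP1, 30.4% in HL60, 6.71% in MV411, 13% in OCIAML3, 2.5% in MOLM13 and 0.0444% in Kasumi1. The Combo shares were 28.8% in THP1, 40.4% in HL60, 18.4% in MV411, 13.2% in OCIAML3, 7.1% in MOLM13 and 3.82% in Kasumi1, so that HL60 had the most Combo calls on that day.

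Taking the 6 lines as replicates, the pair of members that changed in common was MYC and MXI1. With ATRA at day 4 both fell (2 of 9 members tested, beside 7.92% of all genes), and at day 2 both fell (10.9%). With Combo at day 4 both fell (25.2%), and so they did at day 2 (29.4%). For Combo, 2 of 9 members is thus no larger a share than that of all genes. No member was called across lines with 552A by edgeR, on day 2 (2.61% of genes) or day 4 (0.358%); the unadjusted p of 1 member lay under 0.05 on each day, with no DESeq2 call. MYCN did not pass the filter of these fits.

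**Figure D2:**
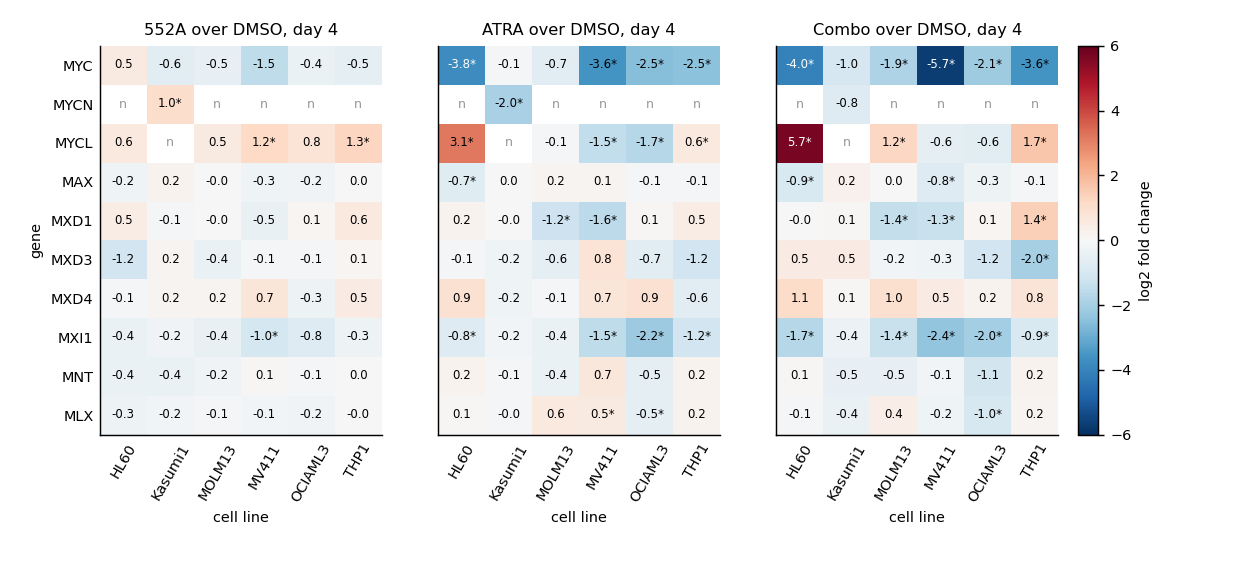
Day 4 log2 changes of the 10 members against DMSO within each line, for 552A, ATRA and Combo, from edgeR fits of 2 libraries a group; a star marks an adjusted p under 0.05 and n a pair that was not tested. The rows of MYC and MXI1 are mostly negative under ATRA and Combo, MYCL runs from 5.70 in HL60 with Combo to -1.70 in OCIAML3 with ATRA, and the 552A panel is close to 0 for most pairs.

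MYC itself gave the steepest falls. In HL60 at day 2, MYC was counted at 592 and 898 CPM with 552A, at 35.7 and 71.9 with ATRA and at 37.4 and 45.0 with Combo, against 1193 and 1703 with DMSO. At day 4 the HL60 values were 2082 and 2835 CPM with 552A, 150.5 and 113 with ATRA and 125 and 89.9 with Combo, against 1562 and 1775 with DMSO. All ATRA and Combo libraries of HL60 lay below all its DMSO libraries. The log2 change with ATRA was -4.78 ± 0.38 at day 2 (standard error here and below; edgeR adjusted p = 3.91e-06; fold 0.0364) and -3.76 ± 0.36 at day 4 (1.18e-05). With Combo it was -5.15 ± 0.39 at day 2 (1.23e-06) and -4.04 ± 0.37 at day 4 (6.52e-06). The 552A difference at day 4 was 0.54 ± 0.32 and was not called (edgeR adjusted p = 0.867), although both libraries lay above both DMSO libraries.

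MV411 showed the deepest loss at day 4. MYC had 117 and 218 CPM with 552A, 29.1 and 49.9 with ATRA and 11.5 and 6.57 with Combo, against 565 and 403 with DMSO. No drug library of MV411 reached its DMSO libraries on that day. The fold was 0.0193 with Combo (log2 -5.70 ± 0.55, edgeR adjusted p = 1.16e-05) and 0.0838 with ATRA (log2 -3.58 ± 0.50, 0.000216), while 552A was not called (-1.53 ± 0.46, 0.0807). At day 2 the MV411 libraries held 171 and 363 CPM with 552A, 147 and 254 with ATRA and 56.2 and 101 with Combo, against 411 and 544 with DMSO, and the Combo fall was called (-2.68 ± 0.48, 0.00207).

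THP1 and OCIAML3 held less MYC to begin with and also lost it. In THP1 at day 4 MYC stood at 183 and 177 CPM with 552A, 48.05 and 46.5 with ATRA and 26.6 and 16.5 with Combo, against 241 and 255 with DMSO. The log2 changes were -2.48 ± 0.24 with ATRA (edgeR adjusted p = 2.85e-05) and -3.59 ± 0.25 with Combo (7.24e-07). At day 2 the 552A libraries lay below the DMSO libraries in all 6 lines for MYC, and the share of all genes that did so was not counted. Across lines the change was -0.83 ± 0.46 and was not called (edgeR adjusted p = 0.309). Within lines the difference was called in THP1, with 156 and 109 CPM against 282 and 296 with DMSO (-1.16 ± 0.23, edgeR adjusted p = 0.0107). In the other lines it ran from -0.99 ± 0.33 in HL60 (0.279) to -0.50 ± 0.40 in Kasumi1 (0.715), and whether the lines differ in it was not tested. The THP1 call was lost without 552A replicate 2, the library whose GC trend stood apart, and without either DMSO day 2 library, with log2 changes of -1.21 to -0.87 in these fits. In OCIAML3 at day 4 MYC had 216 and 268 CPM with 552A, 52.0 and 56.6 with ATRA and 78.5 and 71.1 with Combo, against 309 and 345 with DMSO. Both ATRA (-2.54 ± 0.38, 0.0011) and Combo (-2.13 ± 0.38, 0.00291) were called.

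MOLM13 and Kasumi1 had the fewest MYC calls. In MOLM13 at day 4 MYC had 321 and 646 CPM with 552A, 308 and 537 with ATRA and 189 and 173 with Combo, against 580 and 719 with DMSO. Combo was called (-1.87 ± 0.36, edgeR adjusted p = 0.00298) and ATRA was not (-0.68 ± 0.35, 0.259). In Kasumi1 at day 4 it had 298 and 451 CPM with 552A, 377 and 667 with ATRA and 168 and 409 with Combo, against 494 and 634 with DMSO. No arm was called there on either day by edgeR or DESeq2, with 1 test at an unadjusted p under 0.05; the Combo difference at day 4 was -0.99 ± 0.40 (0.148), and its lower library was replicate 1, whose GC trend stood apart.

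**Figure D3:**
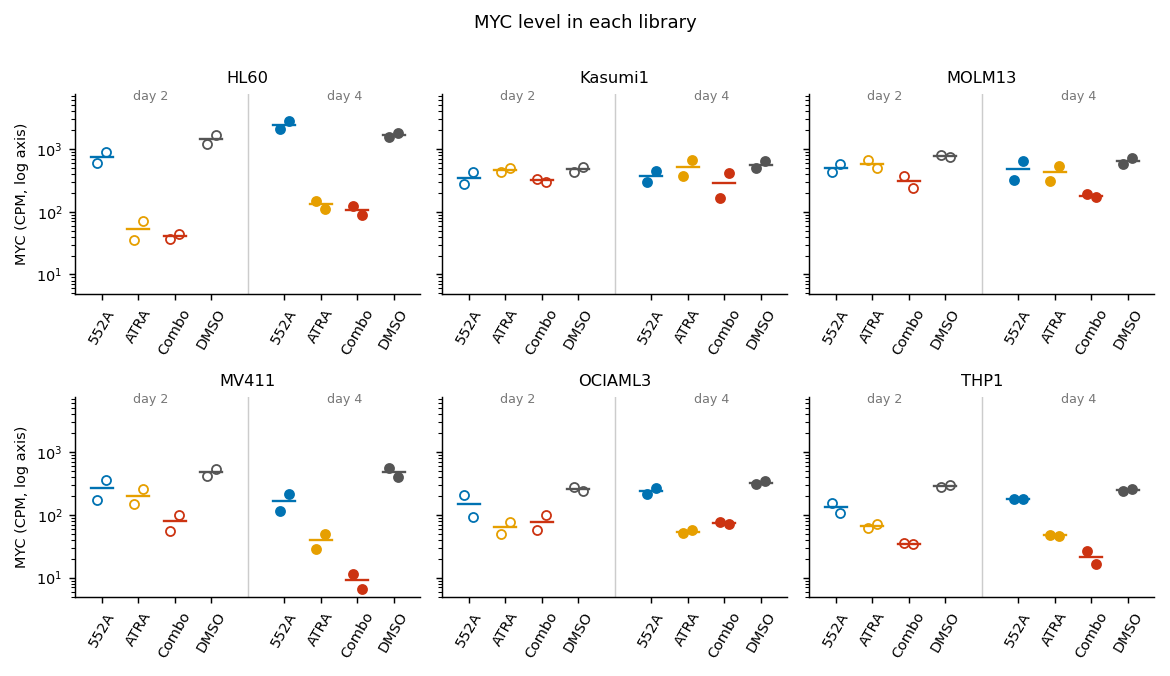
MYC in every library by line and treatment, in CPM on a log axis; open points are day 2, filled points day 4, and bars are group means. In HL60, MV411, OCIAML3 and THP1 the ATRA and Combo libraries of day 4 lie below the DMSO libraries, from 150.5 and 113 CPM with ATRA in HL60 to 11.5 and 6.57 CPM with Combo in MV411.

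Counted over lines, MYC was called lower in 3 lines with ATRA at day 2 and in 4 at day 4, and in 5 lines with Combo on both days. Each of the 9 day 4 calls was kept without each library of its line in turn. At day 2 the calls in OCIAML3 rested on single libraries: ATRA (-1.94 ± 0.38, edgeR adjusted p = 0.00645) was lost without ATRA replicate 1 (log2 -1.64), and Combo (-1.72 ± 0.37, 0.0116) without Combo replicate 1 or DMSO replicate 1 (-1.64 to -1.38). The MOLM13 Combo call of day 2 (-1.38 ± 0.35, 0.0309) was lost without Combo replicate 2 or either DMSO library (-1.42 to -1.08). With the lines as replicates the MYC change with Combo was -2.35 ± 0.50 at day 2 (0.00289) and -2.98 ± 0.56 at day 4 (0.0014), called without each line in turn. With ATRA it was -1.70 ± 0.49 at day 2 (0.0361) and -2.13 ± 0.55 at day 4 (0.025). The ATRA call of day 4 was lost without HL60, MV411, OCIAML3 or THP1, where the change ran from -2.10 to -1.73, and that of day 2 without MV411, OCIAML3 or THP1 or with a correction for GC content and length (-1.61).

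Adding ATRA to the inhibitor lowered MYC in common at day 4, and adding the inhibitor to ATRA did so in some lines. Combo against 552A at day 4 gave -2.55 across lines (edgeR adjusted p = 0.0124; 2 of 9 members called, beside 8.4% of genes), a call lost without THP1 (-2.47). No member was called across lines between Combo and ATRA at day 4 (0.257% of genes; 1 with an unadjusted p under 0.05, and none by DESeq2). Within lines MYC was lower with Combo than with ATRA at day 4 in MV411 (-2.12 ± 0.48, 0.00907) and THP1 (-1.11 ± 0.23, 0.00679), where 19.1% and 15.3% of genes were called. The MV411 difference was lost without ATRA replicate 2 or without Combo replicate 2, whose GC trend stood apart (-1.79 to -1.73), and the THP1 difference without Combo replicate 2 (-0.80). Over all members, Combo against ATRA gave 11 called pairs at day 4, 20.4% of those tested, beside 8.42% of all gene-line pairs.

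MYCL did not follow MYC. In HL60 at day 2 MYCL was counted at 1.80 and 3.17 CPM with 552A, 0.123 and 0.204 with ATRA and 35.0 and 44.5 with Combo, against 0.567 and 0.609 with DMSO. At day 4 its HL60 values were 2.21 and 2.23 CPM with 552A, 14.2 and 13.7 with ATRA and 88.1 and 74.0 with Combo, against 1.79 and 1.12 with DMSO. All 4 Combo libraries lay above all others of the line. The Combo change was 6.06 ± 0.36 at day 2 (66.7-fold, edgeR adjusted p = 2.21e-07) and 5.70 ± 0.34 at day 4 (52.1-fold, 3.22e-07). ATRA alone lowered MYCL at day 2 (-1.82 ± 0.45, 0.00974) and raised it at day 4 (3.15 ± 0.31, 8.88-fold, 1.63e-05). The day 2 fall rests on 3 and 5 counts in the ATRA libraries and was lost without ATRA replicate 1 (-1.57). Combo exceeded ATRA by 7.88 at day 2 and by 2.55 at day 4 on the log2 scale, both called without each library in turn (4.59% and 1.36% of HL60 genes were called).

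Further tests of HL60 were chosen after these values had been seen. The ATRA change of MYCL differed between day 4 and day 2 by 4.97 ± 0.54 on the log2 scale (edgeR adjusted p = 0.00381; 0.593% of genes were called). At day 2 the Combo change exceeded the sum of the ATRA and 552A changes by 5.81 ± 0.54 (0.00138; 0.406% of genes), and at day 4 the excess of 1.98 ± 0.42 was not called (0.0746; 0.38% of genes). MYCL of HL60 was the 1 member and line that the test beyond the sum called among 54 pairs at day 2.

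In THP1, the line with the highest MYCL, every arm stood above DMSO. At day 4 MYCL had 118 and 108 CPM with 552A, 71.95 and 70.2 with ATRA and 153 and 147 with Combo, against 45.9 and 43.0 with DMSO. The groups did not overlap. The 552A change was 1.27 ± 0.16 (2.42-fold, edgeR adjusted p = 0.000352) and the Combo change 1.68 ± 0.16 (3.2-fold, 6.18e-06), each called when any 1 library of the line was left out. The ATRA change (0.59 ± 0.15, 0.0231) was lost without each of the 4 libraries compared (0.61 to 0.69). At day 2 MYCL had 95.7 and 86.8 CPM with 552A, 55.2 and 53.5 with ATRA and 146 and 115 with Combo, against 45.5 and 46.2 with DMSO, and 552A (0.95 ± 0.15, 0.00307) and Combo (1.45 ± 0.16, 2.86e-05) were called.

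In OCIAML3 and MV411 the direction under ATRA was the opposite. OCIAML3 at day 4 had 11.2 and 11.4 CPM of MYCL with 552A, 2.15 and 1.82 with ATRA and 4.18 and 4.43 with Combo, against 7.16 and 6.25 with DMSO. ATRA lowered it (-1.70 ± 0.25, edgeR adjusted p = 0.000942; at day 2 -1.90 ± 0.26, 0.000712), and Combo was not called against DMSO (-0.65 ± 0.24, 0.0948). MV411 at day 4 had 3.79 and 4.15 CPM with 552A, 0.522 and 0.703 with ATRA and 1.28 and 0.939 with Combo, against 1.86 and 1.65 with DMSO. There ATRA lowered it (-1.46 ± 0.33, 0.00561, lost without ATRA replicate 1 at -1.20) and 552A raised it (1.18 ± 0.29, 0.0339, lost without any of 7 libraries, 1.08 to 1.40). In MOLM13 at day 4 Combo stood apart, with 11.6 and 15.6 CPM with 552A, 8.34 and 9.50 with ATRA and 20.1 and 23.0 with Combo, against 9.57 and 8.33 with DMSO (Combo 1.24 ± 0.23, 0.00244). Kasumi1 held 0.0734 to 0.480 CPM in its 16 libraries and was not tested.

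**Figure D4:**
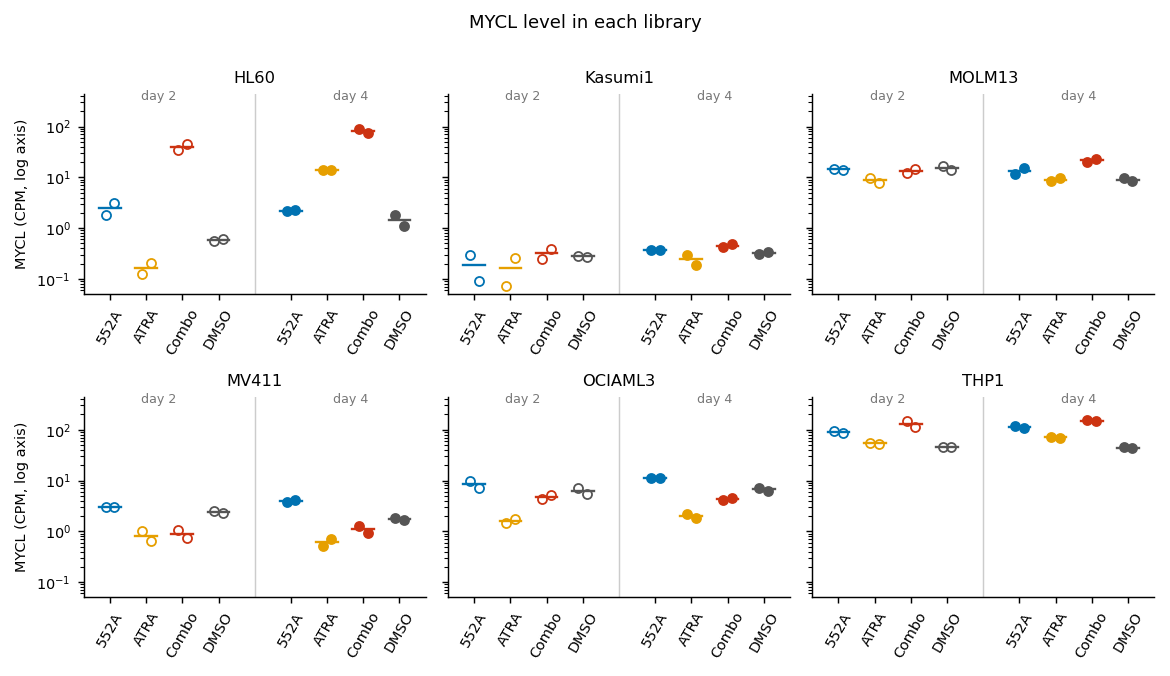
MYCL in every library by line and treatment, in CPM on a log axis; open points are day 2, filled points day 4, and bars are group means. The HL60 Combo libraries of day 4, at 88.1 and 74.0 CPM, stand far above DMSO at 1.79 and 1.12 CPM, while in OCIAML3 and MV411 the ATRA libraries of that day lie lowest.

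MYCL made up a larger share of the MYC family in some lines, through more MYCL, less MYC or both. Per kilobase, MYCL made up 77.3% and 84.1% of the summed MYC, MYCN and MYCL level in the THP1 Combo libraries of day 4, 47.0% and 47.2% with ATRA and 26.6% and 27.6% with 552A, against 9.08% and 10.1% with DMSO. In HL60 at day 4 the share was 29.5% and 32.8% with Combo and 5.29% and 6.74% with ATRA, against 0.0374% and 0.0679% with DMSO. In MV411 it was 6.18% and 7.81% with Combo, against 0.195% and 0.243% with DMSO, although MYCL there was no higher with Combo (1.28 and 0.939 CPM, against 1.86 and 1.65 with DMSO) and MYC was far lower. In THP1 with Combo MYCL thus lay above MYC per length. In Kasumi1 at day 4 MYCN made up 2.61% and 3.23% of the sum with 552A, against 0.857% and 1.02% with DMSO. These shares are ratios within a library, with no test.

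MYCN could be followed in Kasumi1 from 18 to 228 counts a library. At day 4 it had 8.64 and 10.5 CPM with 552A, 1.05 and 1.25 with ATRA and 2.46 and 3.16 with Combo, against 4.41 and 4.75 with DMSO, so that the arms did not overlap DMSO. The 552A change was 1.04 ± 0.24 (edgeR adjusted p = 0.0257) and the ATRA change -1.97 ± 0.27 (0.0165); each was lost without any of the 4 libraries compared, where the changes were 0.92 to 1.20 with 552A and -2.12 to -1.84 with ATRA. At day 2 it had 6.69 and 5.13 CPM with 552A, 1.95 and 1.59 with ATRA and 4.08 and 3.23 with Combo, against 3.28 and 3.04 with DMSO, and edgeR called no arm there, with unadjusted p of 0.00508 for 552A and 0.0062 for ATRA.

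MAX, the dimer partner of MYC and of the MXD repressors, showed small differences. In HL60 at day 4 MAX had 70.5 and 91.3 CPM with 552A, 60.6 and 63.8 with ATRA and 51.6 and 53.3 with Combo, against 85.2 and 104 with DMSO. Combo was -0.93 ± 0.22 (edgeR adjusted p = 0.00608), lost without either Combo library or DMSO replicate 2 (-0.92 to -0.76). In MV411 at day 4 it had 74.3 and 99.3 CPM with 552A, 107 and 116 with ATRA and 62.6 and 57.5 with Combo, against 99.9 and 108 with DMSO. The Combo fall (-0.75 ± 0.18, 0.00854) was lost without Combo replicate 2, whose GC trend stood apart, or DMSO replicate 1 (-0.68 to -0.66). Of 5 MAX calls against DMSO over all lines, days and arms, none was kept without each library in turn.

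Of the repressors, MXD1 moved in opposite directions in different lines. In HL60 at day 2 MXD1 had 44.9 and 50.4 CPM with 552A, 62.2 and 74.9 with ATRA and 99.6 and 136 with Combo, against 28.1 and 34.9 with DMSO. Combo was called (1.89 ± 0.23, 3.71-fold, edgeR adjusted p = 4.41e-05), and ATRA too (1.11 ± 0.22, 0.00299), that ATRA call being lost without DMSO replicate 1 (0.89). At day 4 HL60 had 52.7 and 63.7 CPM with 552A, 42.7 and 59.7 with ATRA and 39.4 and 47.6 with Combo, against 39.9 and 42.9 with DMSO, and no arm was called. A test chosen after seeing these values gave a difference of -1.91 ± 0.32 between the Combo change at day 4 and at day 2 (0.00745; 4.57% of genes were called).

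THP1 kept its rise on both days. MXD1 there had 15.4 and 24.1 CPM with 552A, 16.1 and 15.9 with ATRA and 25.8 and 35.8 with Combo at day 2, against 10.6 and 10.0 with DMSO. At day 4 it had 19.3 and 18.3 CPM with 552A, 17.9 and 17.6 with ATRA and 31.6 and 36.3 with Combo, against 11.99 and 12.2 with DMSO. Combo was called on both days (1.51 ± 0.20, edgeR adjusted p = 0.00015, and 1.41 ± 0.20, 0.000173). The 552A call of day 2 (0.89 ± 0.20, 0.0212) was lost without replicate 2 of that arm, whose GC trend stood apart, or either DMSO library (0.59 to 0.90).

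In MOLM13 and MV411 MXD1 was lower under ATRA than with DMSO of the same day. At day 4 MOLM13 had 74.7 and 72.04 CPM with 552A, 32.3 and 31.9 with ATRA and 26.6 and 27.9 with Combo, against 66.6 and 76.7 with DMSO. ATRA (-1.23 ± 0.21, edgeR adjusted p = 0.0032) and Combo (-1.42 ± 0.22, 0.000551) were called. MV411 had 46.1 and 38.9 CPM with 552A, 19.8 and 18.6 with ATRA and 19.9 and 25.0 with Combo, against 42.0 and 74.8 with DMSO, and again ATRA (-1.56 ± 0.25, 0.000628) and Combo (-1.34 ± 0.25, 0.00156) were called. All 4 of these calls were kept without each library in turn. The higher DMSO library of MV411 was replicate 2, whose GC slope was -0.533. At day 2 MOLM13 had 23.8 and 39.1 CPM with ATRA, against 39.3 and 49.4 with DMSO. MV411 on that day had 15.45 and 15.7 CPM with ATRA, against 35.0 and 32.1 with DMSO. In Kasumi1 and OCIAML3 no MXD1 difference from DMSO was called on either day by edgeR or DESeq2, with 0 of the Kasumi1 and 3 of the OCIAML3 tests at an unadjusted p under 0.05. Across lines the change was -0.39 ± 0.28 with ATRA and -0.17 ± 0.29 with Combo at day 4, neither called (0.409 and 0.696). With DMSO alone MXD1 stood 0.48 ± 0.13 higher at day 4 than at day 2 across lines, which was not called (edgeR adjusted p = 0.342, unadjusted p = 0.00193).

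**Figure D5:**
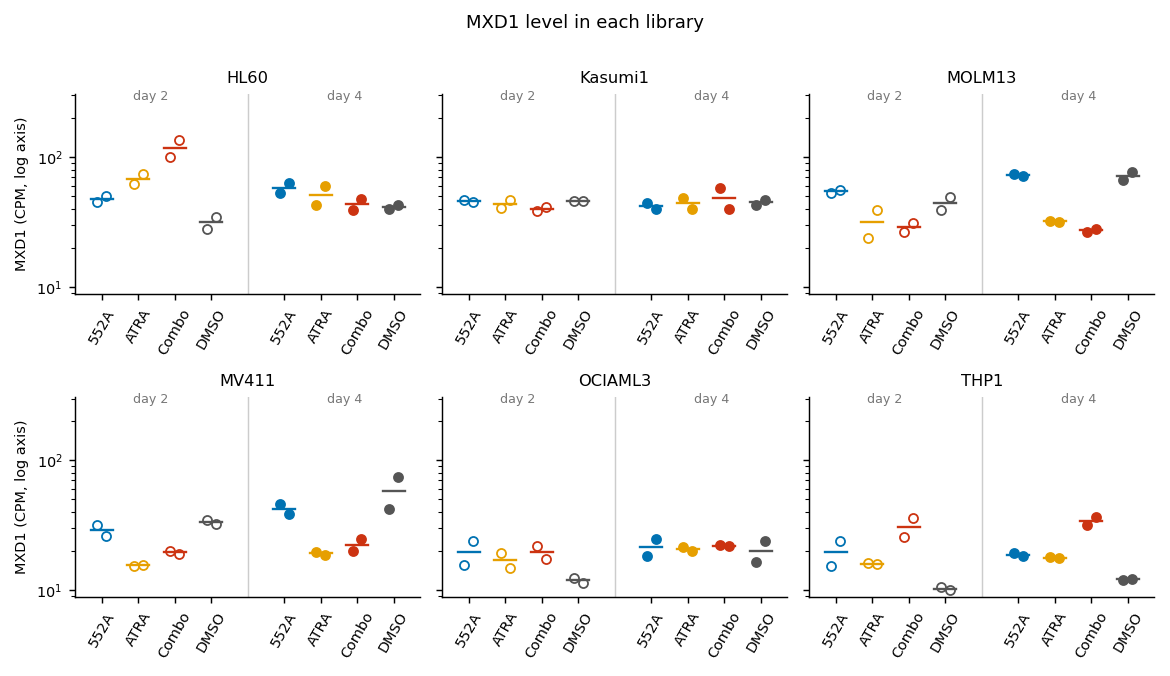
MXD1 in every library by line and treatment, in CPM on a log axis; open points are day 2, filled points day 4, and bars are group means. The HL60 Combo libraries of day 2 (99.6 and 136 CPM) and the THP1 Combo libraries lie above DMSO, while in MOLM13 and MV411 the ATRA and Combo libraries of day 4 lie below it.

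MXI1, a repressor of the same family also called MXD2, was called lower with Combo at day 4 in 5 of 6 lines. At day 4 it had 87.5 and 101 CPM with 552A, 68.98 and 85.1 with ATRA and 37.3 and 40.6 with Combo in HL60, against 112 and 131 with DMSO. In MV411 it had 103 and 87.0 CPM with 552A, 73.5 and 56.5 with ATRA and 31.9 and 42.1 with Combo, against 157 and 232 with DMSO. In MOLM13 it had 79.7 and 84.1 CPM with 552A, 83.1 and 84.2 with ATRA and 40.99 and 42.9 with Combo, against 98.1 and 113 with DMSO. The Combo libraries were the lowest in each of these lines. The Combo changes were -1.73 ± 0.26 in HL60 (edgeR adjusted p = 0.000294), -2.36 ± 0.24 in MV411 (1.66e-05) and -1.35 ± 0.16 in MOLM13 (6.28e-05), each called when any 1 library of the line was left out.

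The remaining lines split. THP1 at day 4 had 22.1 and 26.4 CPM of MXI1 with 552A, 12.4 and 15.01 with ATRA and 14.3 and 17.5 with Combo, against 28.3 and 29.1 with DMSO, and both ATRA (-1.15 ± 0.21, edgeR adjusted p = 0.00247) and Combo (-0.93 ± 0.21, 0.00397) were called, the ATRA call being lost without ATRA replicate 1 (-0.97). OCIAML3 varied widely between replicates, with 32.0 and 105 CPM with 552A, 24.1 and 26.7 with ATRA and 28.2 and 31.9 with Combo, against 77.5 and 164 with DMSO. Replicate 2 was the higher in 8 of 8 groups of OCIAML3. Its ATRA (-2.20 ± 0.55, 0.0184) and Combo (-2.02 ± 0.54, 0.0269) calls were lost without DMSO replicate 2 or either library of the arm, with changes of -2.27 to -1.59 for ATRA and -2.09 to -1.38 for Combo. In Kasumi1 at day 4 MXI1 had 105 and 115 CPM with 552A, 112 and 111 with ATRA and 111 and 91.5 with Combo, against 118 and 133 with DMSO, and no arm was called.

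Across lines MXI1 changed by -1.44 ± 0.24 with Combo at day 4 (edgeR adjusted p = 0.000652) and by -1.003 ± 0.19 at day 2 (0.00174), called without each line in turn. With ATRA it changed by -1.02 ± 0.23 at day 4 (0.0158), lost without OCIAML3 (-0.81) or THP1 (-1.01), and by -0.66 ± 0.19 at day 2 (0.0381), lost without MOLM13, MV411, OCIAML3 or THP1 (-0.72 to -0.44). Combo against 552A at day 4 gave -0.92 (0.023), which was lost without any line but Kasumi1 (-1.01 to -0.83). With DMSO alone MXI1 stood 0.49 ± 0.17 higher at day 4 than at day 2 across lines, which was not called (edgeR adjusted p = 0.383, unadjusted p = 0.0118).

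For MXD3, MXD4 and MNT the replicates themselves lay far apart. In THP1 with 552A at day 2 MXD4 had 60 and 12.3 CPM and MXD3 22.6 and 5.02, and in OCIAML3 MXD4 had 27.3 and 3.72 CPM and MXD3 34.1 and 4.87; the lower library in each case was replicate 2, whose GC trend stood apart. The GC content of the longest transcript is 61.3% in MXD3, 57.6% in MXD4 and 61.4% in MNT. It is 56.9% in MYCN, 55.1% in MYCL, 53.9% in MYC, 51.8% in MLX, 51.3% in MAX, 43.7% in MXI1 and 42.7% in MXD1. The part of GC content in the replicate gaps was not tested. MXD4 was called against DMSO in no line, arm or day by edgeR, with 1 unadjusted p under 0.05 among 36 tests and 1 DESeq2 call, for HL60 with Combo at day 2. Across lines its change with Combo at day 4 was 0.67 ± 0.26 and was not called (edgeR adjusted p = 0.0683, unadjusted p = 0.0202). The change was positive in all 6 lines, from 0.06 to 1.11. DESeq2 called 3 members in that comparison, where edgeR called 2. MXD3 was lower in THP1 with Combo at day 4, with 7.56 and 3.23 CPM against 22.5 and 18.8 with DMSO (-1.99 ± 0.62, edgeR adjusted p = 0.025), lost without Combo replicate 2 or either DMSO library (-2.07 to -1.50). MNT, which represses growth genes in resting cells, was higher in HL60 with Combo at day 2, with 18.4 and 35.4 CPM against 10.7 and 11.4 with DMSO (1.27 ± 0.39, 0.0202), lost without Combo replicate 2 or either DMSO library (0.69 to 1.26).

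MLX differed from DMSO in 2 lines, in opposite directions. In OCIAML3 at day 4 it had 85.0 and 90.9 CPM with 552A, 67.6 and 71.0 with ATRA and 55.2 and 53.7 with Combo, against 105.0 and 105.2 with DMSO, with no overlap. Combo was called (-0.96 ± 0.16, edgeR adjusted p = 0.00241) without each library in turn. In MV411 it had 70.8 and 87.8 CPM with 552A, 127 and 118 with ATRA and 82.1 and 62.8 with Combo, against 92.1 and 83.5 with DMSO. The ATRA rise (0.53 ± 0.18, 0.0438) was lost without any of 6 libraries of the line (0.44 to 0.60).

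Some members share bases with other genes, and the strand setting of the counting is not given in the sources used here. Exons of MXD3 overlap RAB24 on the same strand over 926 bases and PRELID1 on the opposite strand over 1158, those of MLX overlap PSMC3IP over 770 and those of MXD1 overlap SNRNP27 over 237. Antisense genes overlap MYCL (AL033527.2, 226 bases), MAX (AL139022.1, 184), MNT (AC006435.1, 1065), MXI1 (AL360182.2, 205) and MYCN (MYCNOS, 98). Reads from there cannot be assigned between the partners, and their part in the results was not tested. Across lines at day 4, AL033527.2 was higher with Combo (2.28 ± 0.72, edgeR adjusted p = 0.0272) and was not called with ATRA (1.15 ± 0.76, 0.358). It held 11 and 16 counts in the HL60 Combo libraries of day 4, where MYCL rose, against 0 and 0 with DMSO, and 1.91 and 2.01 CPM with Combo in THP1, against 0.696 and 0.752 with DMSO. Its mean over all libraries was 0.115 CPM in HL60 and 1.29 in THP1, where MYCL averaged 17.7 and 87.6 CPM. RAB24, PRELID1, PSMC3IP, SNRNP27 and AL139022.1 were not called across lines with ATRA or Combo at day 4, and MYCNOS, AL360182.2 and AC006435.1 were too low to test.

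The lines differed from each other in these responses. With ATRA at day 4 the change differed between lines for 5 of 10 members (edgeR quasi-likelihood F test of the interaction of line and treatment; 31.4% of genes were called), namely MYC (adjusted p = 7.2e-06), MYCL (2.74e-13), MXD1 (5.63e-06), MXI1 (0.00496) and MLX (0.0018). With Combo it differed for 6 (33.6% of genes), namely MYC (6.46e-07), MYCL (1.27e-15), MAX (0.000988), MXD1 (6.82e-08), MXI1 (0.0054) and MLX (0.000419). With 552A no member was called by edgeR (5.69% of genes), against 3 at an unadjusted p under 0.05 and 1 by DESeq2.

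The balance of repressor to MYC-type transcripts turned in MV411 and, at day 2, in HL60. The log2 ratio of summed MXD1, MXD3, MXD4, MXI1 and MNT over summed MYC, MYCN and MYCL per kilobase was 2.52 and 2.93 with Combo and 0.88 and 1.64 with ATRA at day 4, against -1.84 and -1.01 with DMSO. In HL60 at day 2 it was 0.66 and 1.08 with Combo and 0.82 and 1.24 with ATRA, against -4.20 and -3.87 with DMSO. At day 4 the HL60 ratio was -0.87 and -0.72 with Combo and -0.37 and -0.28 with ATRA, against -3.79 and -3.70 with DMSO. Repressor transcripts thus exceeded MYC-type ones with both arms at day 4 in MV411 and at day 2 in HL60, and lay below them in HL60 at day 4. In OCIAML3 at day 4 the ATRA libraries, at -0.09 and 0.46, lay on both sides of 0. The ratio is a description within libraries, with no test.

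Genes that MYC is known to activate were, where called, lower under ATRA and Combo. The list of 23 (nucleolar, nucleotide synthesis, glycolytic and cell cycle genes, chosen with earlier results of these data known) had 0 higher and 5 lower across lines with ATRA at day 4, and 0 higher and 15 lower with Combo; their median log2 changes were -0.458 and -0.744, beside -0.00915 and 0.0205 over all genes tested, of which 3.26% and 11.7% were called lower. With 552A 0 were called by edgeR, 0 reached an unadjusted p under 0.05 and 0 were called by DESeq2 (median -0.175, beside -0.0167); the smallest p belonged to SRM (-0.43 ± 0.21, edgeR adjusted p = 0.687). The most significant with Combo were SRM, which makes spermidine (-1.58 ± 0.21, edgeR adjusted p = 0.000229), CAD, which starts pyrimidine synthesis (-1.30 ± 0.20, 0.000487), and SHMT2, a mitochondrial enzyme of serine and glycine metabolism (-1.46 ± 0.23, 0.000579), and they were called without each line in turn. With ATRA they were SRM (-0.99 ± 0.21, 0.0114), BOP1, which acts in the maturation of the large ribosomal subunit (-1.10 ± 0.26, 0.0198), and CAD (-0.83 ± 0.20, 0.02). The ATRA count fell to 0 without HL60, OCIAML3 or THP1 and to 2 with a GC and length correction; the Combo count was 10 at the lowest, without THP1. Within lines, Combo at day 4 called 18 members of the list lower in MV411 and in THP1, where 13.6% and 16.8% of genes were called lower, and 12 in HL60 (14.3%). It called 8 lower in Kasumi1 (3.36%) and in OCIAML3 (5.14%), and 2 in MOLM13 (5.93%), while 1 was called higher in each of HL60, MV411 and THP1.

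At day 4 cofactors of MYC were, where called across lines, lower, and the called corepressor and turnover genes were higher. With Combo at day 2, 1 corepressor gene was called higher and 1 lower, and 4 turnover genes higher and 1 lower, where 29.4% of all genes were called. Of 10 MYC cofactors, 2 were lower across lines with ATRA at day 4 and 5 with Combo, and none higher, beside the 3.26% and 11.7% of all genes called lower. The Combo calls were led by RUVBL2, an ATPase of chromatin remodelling complexes (Combo -1.495 ± 0.24, edgeR adjusted p = 0.000603), WDR5, which binds MYC at chromatin (-0.69 ± 0.14, 0.002), and the acetyltransferase KAT2A (-0.80 ± 0.16, 0.00221), all kept without each line in turn. With ATRA, KAT2A (-0.64 ± 0.16, 0.0234) and RUVBL2 (-0.90 ± 0.24, 0.0288) were lost without HL60, OCIAML3 or THP1 (-0.72 to -0.52 for KAT2A and -0.82 to -0.70 for RUVBL2), KAT2A also without MOLM13 or MV411 (-0.66 and -0.64) and with the GC and length correction (-0.49). Over all genes 4.66% were called higher with ATRA and 13.5% with Combo, which is the background to the next counts, each of few genes. Of 5 corepressor genes, 1 was higher with each of ATRA (HDAC1, 0.58 ± 0.15, 0.0282) and Combo (NCOR1, 0.32 ± 0.11, 0.0375), HDAC1 being lost without HL60, MOLM13, MV411 or THP1 (0.43 to 0.59) and NCOR1 without HL60, Kasumi1, MV411 or OCIAML3 (0.18 to 0.36) and with the GC and length correction (0.08). Of 9 genes acting on MYC protein turnover, 2 were higher with ATRA and 3 with Combo. GSK3B, the kinase that marks MYC for degradation, was higher with ATRA (0.39 ± 0.11, 0.0424, lost without any line but Kasumi1 and with the correction, 0.28) and with Combo (0.50 ± 0.11, 0.00457, lost with the correction, 0.26). The kinase PIM1 was higher with ATRA (1.498 ± 0.45, 0.0475) and Combo (1.36 ± 0.45, 0.0339), both lost without HL60, MOLM13, MV411 or THP1 (1.07 to 1.60 for ATRA and 0.95 to 1.39 for Combo), ATRA also without OCIAML3 (1.72). USP28, an enzyme that removes ubiquitin from MYC, was higher with Combo (0.47 ± 0.15, 0.0294, lost without Kasumi1, MOLM13 or MV411, 0.36 to 0.43, with the GC and length correction, 0.31, with no filter on low counts, 0.45, and without the 5 libraries whose GC trend stood apart, 0.40).

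Outside the members, MLXIPL was the E-box factor that rose. This partner of MLX, a glucose-sensing activator of lipid synthesis genes, changed by 3.37 ± 0.51 with ATRA at day 4 (edgeR adjusted p = 0.00202) and by 3.13 ± 0.52 with Combo (0.000681), kept without each line in turn; its list fellows MLXIP and MGA were not called. Of the genes MYC is known to repress, 5 of 6 were tested and 0 were called with ATRA by edgeR (1 with an unadjusted p under 0.05), and 1 was lower with Combo (11.7% of all genes were), the stress gene GADD45A (-0.82 ± 0.29, 0.0464). That call was lost without HL60, Kasumi1, MOLM13 or MV411 (-0.93 to -0.52) and with the GC and length correction (-0.73). The cell cycle inhibitor CDKN2B was not called with ATRA (0.83 ± 0.34, 0.146) or Combo (0.94 ± 0.35, 0.0642).

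Across the 48 group means, centred within each line and day, the genes whose log2 CPM ran most like MYC among 11277 protein-coding genes were NLE1 (r = 0.973), NOB1 (0.971), IMPDH2 (0.967), PSMG4 (0.965) and RPUSD4 (0.956), and the most opposed were ARL15 (-0.95), REL (-0.948) and RIPK1 (-0.946). For MXD1 the most alike were NABP1 (0.807), FOXO3 (0.796), QKI (0.754), TCAIM (0.752) and NEB (0.743), and the most opposed RFC2 (-0.864), FN3KRP (-0.851) and UVRAG (-0.79). Among the members, MYC ran with MXI1 (0.775) and MAX (0.644), and not with MXD1 (-0.113) or MYCL (-0.304). These correlations are descriptions over groups that share lines and libraries.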

How the data were processed

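The deposited file is a matrix of raw read counts per gene for 96 libraries, which the authors made with Trimmomatic 0.36, STAR 2.4.2a and HTSeq 0.6.0 on GRCh38, per the submitters' processing notes. The library kit marks strand, per the labels' protocols, and the strand setting of the counting is not given in the sources used here. Of 60552 gene rows, 56994 matched GENCODE 29, which supplied symbols, positions, lengths and GC content. Counts were tested with edgeR 4.0.16 in R 4.3.3 (TMM scaling, filterByExpr, quasi-likelihood F tests, Benjamini-Hochberg adjustment over all genes tested, threshold 0.05), within each line over its 16 libraries. Across lines, the 2 replicates of a group were summed and line was a block. A difference between lines was tested by the interaction of line and treatment at day 4. CPM values share 1 TMM scale over all 96 libraries. Levels per kilobase divide CPM by the exon length of a gene. Likeness was Pearson's r over log2 CPM (prior count 0.5) centred within each line and day, for protein-coding genes whose log2 CPM averaged 1 or more. Named beside the members are up to 3 genes of smallest p in each list and arm, and the 5 most alike and the 3 most opposed genes for MYC and MXD1. Alternatives were DESeq2 1.42.0, its size factors, no filter, a GC and length correction by splines of 5 degrees of freedom, the replicate block, leaving out each library or line, and leaving out the 5 libraries whose GC trend stood apart. The code was tested on simulated data. The members and lists were chosen with earlier results of these data known. The sums of the lymphoid, erythroid and megakaryocyte marker lists are not reported here.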

Additional observations from a re-analysis of the deposited data

Results flagged for a closer look

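The size of the treatment response at day 4 differed between the 6 lines for several members, by edgeR's F test of the interaction of line and treatment. With ATRA the adjusted p was 7.2e-06 for MYC, 2.74e-13 for MYCL, 5.63e-06 for MXD1, 0.00496 for MXI1 and 0.0018 for MLX. With Combo it was 6.46e-07 for MYC, 1.27e-15 for MYCL, 0.000988 for MAX, 6.82e-08 for MXD1, 0.0054 for MXI1 and 0.000419 for MLX.

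In HL60 the response of 2 members differed between days, by tests chosen after the values had been seen. The MYCL change with ATRA was higher at day 4 than at day 2 by 4.973 on the log2 scale, and the MXD1 change with Combo was lower at day 4 than at day 2 by -1.905.

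Over the members, 1 line stood far from the others in 3 of 54 groups of line changes examined. Chance gives about 1 in 20, so 3 is about the number it gives. All 3 were of MAX. The log2 change with 552A at day 2 was 0.1542 in Kasumi1, the highest, and -0.1328 in the next line. The change with ATRA in HL60 was the lowest on both days, at -0.7348 against -0.193 in the next line at day 2 and -0.7035 against -0.1396 at day 4.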

How the results depend on the processing

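Main counts stand in parentheses, and causes were not tested. Called gene-line pairs for 552A at day 2 (4) numbered 7 with no filter on low counts, 8 with the GC and length correction, 11 with the replicate block and that correction, and 2 without the 5 libraries. For ATRA at day 2 (12) they numbered 21 with block and correction; for Combo against ATRA at day 2 (7), 12 by DESeq2, 13 with the correction and 15 with both; for Combo against 552A at day 2 (14), 22 and 25; for 552A at day 4 (4), 9 and 12; and for Combo against ATRA at day 4 (11), 20 with no filter, 18 and 21. For DMSO between days (0) they numbered 3 with no filter, 1 by DESeq2, 2 with the correction and 4 with both. Members called across lines for ATRA at day 2 (2) numbered 1 with the correction. By DESeq2 they numbered 1 for Combo against ATRA (0) and 2 for Combo against 552A (0) at day 2, and with no filter 2 for DMSO between days (0). For 552A differing between lines (0) they numbered 1 with no filter, 1 by DESeq2 and 2 with the correction. In the lists with ATRA at day 4, the correction gave 1 cofactor (2), 2 activated targets (5) and 1 turnover gene (2), and at day 2 it gave 1 activated target (6). The ATRA turnover count at day 4 was 1 with no filter, 4 by DESeq2 and 1 without the 5 libraries, and DESeq2 gave 2 corepressors (1). In the lists with Combo at day 4, the correction gave 2 E-box partners (1), 2 corepressors (1), 1 turnover gene (3) and 0 repressed targets (1). Corepressors were 0 with no filter and 0 without the 5 libraries. Repressed targets were 0 with DESeq2 size factors, 0 with no filter, 0 without the 5 libraries and 2 by DESeq2. Direction reversed under the correction for MNT in THP1 between Combo and ATRA at day 2 (-0.6829, and -0.6879 with the block), for MNT in THP1 beyond the sum at day 2 (-1.235, and -1.218 with the block), for MNT between OCIAML3 and HL60 with DMSO (-0.1825) and for MGA with Combo at day 4 (-0.3011). It also reversed for MXD4 in Kasumi1 with Combo at day 4 without Combo replicate 2 (-1.143, and 0.7063 without replicate 1).

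Leaving out 1 library at a time, called pairs ranged from 2 to 10 for 552A at day 2, 10 to 14 for ATRA, 15 to 19 for Combo, 5 to 9 for Combo against ATRA and 11 to 17 for Combo against 552A. At day 4 the ranges were 2 to 5, 16 to 20, 19 to 24, 9 to 13 and 16 to 21 in the same order. Leaving out 1 line, members called ranged from 0 to 2 for ATRA on both days, 2 to 3 for Combo at day 4, 0 to 1 and 0 to 2 for Combo against 552A at days 2 and 4, and 4 to 6 and 5 to 6 for ATRA and Combo differing between lines. Activated targets ranged from 0 to 1 for 552A, 0 to 8 for ATRA and 16 to 19 for Combo at day 2, and 0 to 5 for ATRA and 10 to 17 for Combo at day 4. At day 4 cofactors ranged from 0 to 3 for ATRA and 4 to 6 for Combo, corepressors from 0 to 1 for each, turnover genes from 0 to 2 and 1 to 3, and repressed targets from 0 to 2 for Combo.

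Replicate numbers were not taken to pair the samples, since not every correlation of same-numbered deviations passed 0.1: they ran from -0.815 to 0.913, with medians of 0.0585 (MOLM13) to 0.425 (THP1) and 13 to 21 of 28 a line over 0.1. As a hint of shared deviation, MAX was higher in replicate 2 in 8 of 8 groups of HL60 and Kasumi1, 7 of 8 of MV411, OCIAML3 and THP1, and 4 of 8 of MOLM13. MXI1 was so in 8 of 8 groups of HL60, OCIAML3 and THP1, 7 of 8 of MOLM13, and 5 of 8 of Kasumi1 and MV411. MXD1 was so in 8 of 8 groups of HL60 and in 3 to 6 of 8 in the other lines. The 5 MAX calls against DMSO within lines held with the block, and the ATRA change of MAX then differed between lines (adjusted p = 0.0078, against 0.0573). The replicate block alone gave 14 pairs for ATRA at day 2 and 5, 18 and 21 for 552A, ATRA and Combo at day 4. With 2 libraries a group and low counts, MYCN and MYCL in the lines where they were under the filter could not be tested.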
